A study of Mus musculus with 16 samples.

Results

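The comparison described here is between crushed sciatic nerves of WldS mice at day 7 and at day 3 after injury. Its values come from 4 of the 16 arrays of the series, chosen by their titles. They are 2 from WldS nerves at day 3 and 2 from WldS nerves at day 7. The tests took their estimate of the spread within groups from all 16 arrays. RNA was measured with an Affymetrix whole-genome mouse array in the part of the nerve beyond the lesion, the distal stump. WldS nerves came from the strain C57BL/6 OlaHsd-Wlds, labelled as the WldS mutant genotype, and the C57BL/6 nerves at day 3 and day 7 (2 arrays each) serve for comparison. All mice were 8 to 12 weeks old, and in these 4 groups the sciatic nerve had received a microcrush lesion. Uninjured nerves (day 0) and nerves at day 14 complete both strains. A segment of 4 mm, reaching from 1 to 5 mm beyond the lesion, was collected, and tissue was pooled before RNA extraction. Each array is taken as a separate pool, so n = 2 pools per group, and the number of mice behind a pool is not stated. All p-values therefore measure the spread between pools, which may be partly technical.

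After a nerve is crushed, the axons beyond the lesion break down in a process called Wallerian degeneration. Macrophages enter the stump and clear debris, and Schwann cells leave the myelinating state and take on a repair state that guides regrowing axons. WldS mice carry a spontaneous germline mutation that fuses part of the ubiquitination factor gene Ube4b to the whole coding sequence of Nmnat1, an enzyme that makes NAD, and their severed axons survive far longer than those of other mice. The mutation is present in every cell of the animal and not in axons alone, and WldS and C57BL/6 are labelled as different substrains, so other inherited differences between them cannot be told apart from the mutation.

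Nmnat1 marked the strain of the arrays: its signal on the log2 scale was 8.71 and 8.87 in the WldS day 3 pools and 8.50 and 8.75 at day 7, against 6.27 and 5.94, and 5.59 and 5.47, in the C57BL/6 pools of the same days. It did not pass the test for a change from day 3 to day 7 in WldS (difference -0.17 ± 0.16, limma adjusted p = 0.661). The deposited values have nearly equal medians, from 6.42 to 6.49 over the 16 arrays, and arrays carry no count depth, so their number limits the precision. RNA integrity was followed by an index, the signal of 3' minus 5' control probes (log2, averaged over Actb and Gapdh), which read 1.68 and 1.94 in the day 3 pools and 2.02 and 2.00 in the day 7 pools. The index was 3.81 and 2.46 in the uninjured WldS pools and 2.22 and 3.23 at day 14. Reference levels from those days thus include pools of higher index. The part of the index in the results was not tested beyond the fits that take it as a covariate or leave out both arrays of high index. Of the cell type markers that were measured, all 4 of Schwann cells, 4 of macrophages, 4 of fibroblasts and 3 of perineurium lay above the dim filter (log2 5.37, under which a signal counts as dim), while of 3 skeletal muscle markers only Ckm did.

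Of 14545 genes tested, 963 (6.62%) differed between day 7 and day 3 in WldS nerves at a limma adjusted p below 0.05, and 2717 (18.7%) had an unadjusted p below 0.05. At day 7, 442 genes (3.04%) were higher and 521 (3.58%) were lower. A change of at least 2-fold was measured for 75 of the former and 183 of the latter. All 963 had day 7 pools that did not overlap the day 3 pools, which was true of 48.4% of all genes tested. Absence of overlap therefore adds nothing to the call of a gene named below. The median change over all genes was 0.01 on the log2 scale. Calls depended on single pools. Without day 3 replicate 1 there were 319 calls (120 higher, 199 lower), without day 7 replicate 1 there were 507 (237 higher, 270 lower), and without day 3 replicate 2 there were 241 higher. A fit to the 4 arrays alone gave 454 calls. Where a list described below had calls in 1 direction and 0 in the other, at most 2 of its members had an unadjusted p below 0.05 in that other direction, and limma-trend or array weights called at most 1. Of the 40 list medians, 8 changed sign without 1 of the 4 pools and 15 others moved by over 1.5 times, chemokines and complement among them. Values after ± are standard errors of a log2 difference, and a member of a gene list is called when its adjusted p over all 14545 genes is below 0.05. Counts of called members stand against 3.04% of all genes higher and 3.58% lower, and against 2.28% for the difference between strains.

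Of the 12 genes that fell most, 3 were in the monocyte list (Chil3, Arg1 and Ms4a4c), 3 in the neutrophil and early myeloid list (Slfn4, Slfn1 and S100a8), 1 in the interferon response list (Mx1) and 5 in no list. Chil3, which encodes a chitinase-like protein secreted by monocytes and alternatively activated macrophages, had a signal of 9.77 and 9.97 at day 3 and 5.68 and 5.73 at day 7, a fall of 17.9-fold (-4.16 ± 0.20, limma adjusted p = 9.79e-08). Arg1, the arginase that serves as a second marker of that macrophage state, went from 9.44 and 10.40 to 6.31 and 7.13 (-3.20 ± 0.39, limma adjusted p = 0.000268). For both genes every day 3 pool lay more than 2 log2 units above every day 7 pool. Slfn4, a schlafen family gene of myeloid cells, was at 12.60 and 11.55 at day 3 and at 8.06 and 9.07 at day 7 (-3.51 ± 0.30, limma adjusted p = 2.09e-05). Its relative Slfn1 went from 10.42 and 9.78 to 7.13 and 6.85 (-3.11 ± 0.18). Saa3, an acute phase protein, was at 11.30 and 10.40 and then at 7.21 and 7.74 (-3.37 ± 0.36). In these 3 genes day 3 replicate 1 was the higher of the day 3 pools, and the groups stayed apart, as in every called gene. S100a8, a calcium-binding protein of neutrophils, was at 7.04 and 8.06 at day 3 and at 5.36 and 5.10, below the dim filter, at day 7, so its change (-2.32 ± 0.30, limma adjusted p = 0.000382) is a lower bound in size. Prg4, which encodes the lubricating glycoprotein lubricin, fell by 2.70 ± 0.22, from 8.93 and 8.17 to 5.95 and 5.75. Ms4a4c, a membrane protein of monocytes, fell by 2.69 ± 0.26. The remaining genes among the 12 largest falls were Ifit1bl1 (-3.05), Mx1 (-2.82), Elobl (-2.31) and Ifi213 (-2.23).

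Some of these genes were at day 7 within the range of uninjured WldS nerves and others were not. Saa3 had a signal of 7.32 and 6.80 in uninjured nerves and Prg4 of 5.76 and 6.34, and both overlapped their day 7 pools. Slfn4 (6.03 and 5.97 when uninjured) and Arg1 (4.68 and 5.09) were still higher at day 7 than in any uninjured pool. By day 14 the Slfn4 pools were at 6.50 and 6.62. Ifit1bl1 (7.35 in both uninjured pools) and Elobl (8.82 and 9.02) were at day 7 below them. Chil3 was below the dim filter in both uninjured pools.

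**Figure D1:**
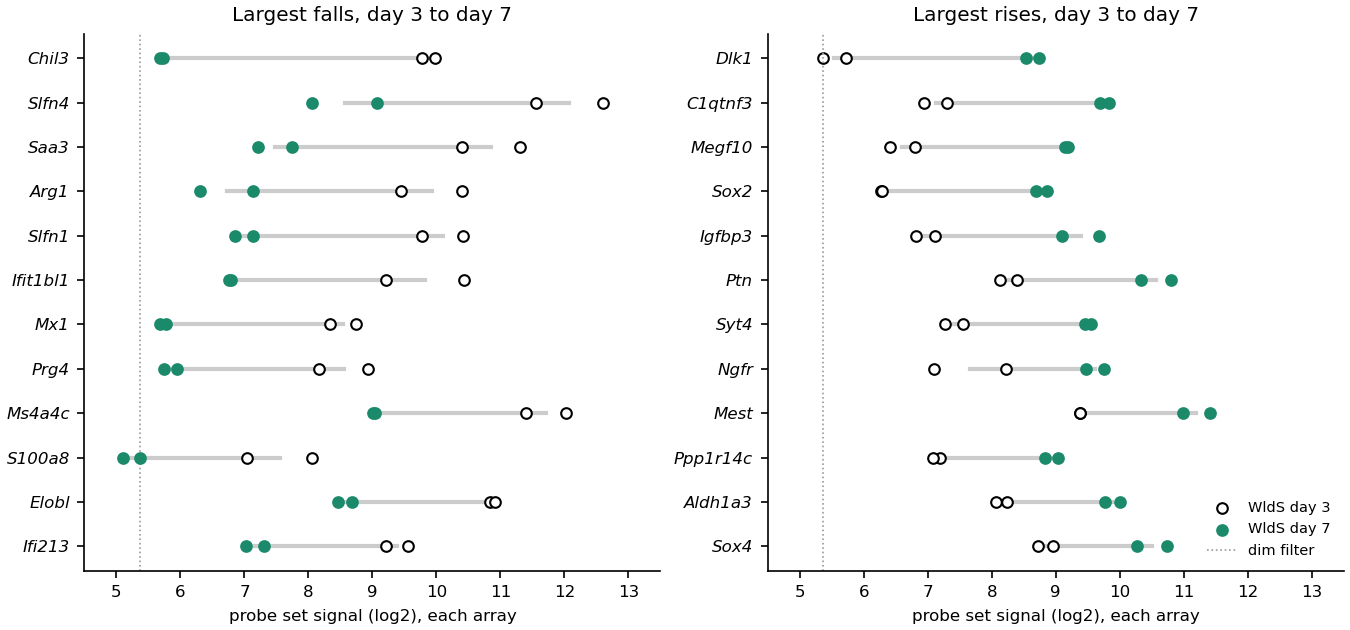
Signal on the log2 scale in each WldS array for the 12 genes with the largest falls (left) and the 12 with the largest rises (right) from day 3 to day 7. Open circles are the day 3 pools, filled circles the day 7 pools, the grey bar joins the group means and the dotted line is the dim filter at 5.37. The genes were chosen among called genes whose pools of the 2 days do not overlap. Chil3 moves furthest, from 9.77 and 9.97 to 5.68 and 5.73.

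Interferon response genes fell together. Interferons switch on antiviral genes, many of which carry a promoter element called the ISRE. Of 32 tested members of this list, 27 were lower at day 7 and 0 were higher, with a median change of -1.05 against 0.01 over all genes. Mx1, an antiviral dynamin-like GTPase, had a signal of 8.75 and 8.33 at day 3 and 5.68 and 5.77 at day 7 (-2.82 ± 0.15, limma adjusted p = 1.53e-07). Oas3, which makes the 2'-5' oligoadenylates that activate RNase L, was at 9.57 and 8.94 and then at 7.31 and 7.13 (-2.04 ± 0.19, limma adjusted p = 3.95e-05). Irf7, a transcription factor that amplifies the response, went from 10.77 and 10.30 to 8.54 and 8.86 (-1.84 ± 0.19), and Ifit1, which binds foreign RNA, from 10.34 and 10.33 to 8.54 and 8.48 (-1.83 ± 0.27). In all 4 genes each day 7 pool lay at least 1 log2 unit below each day 3 pool. The mean level of the list was 10.05 and 9.69 in the day 3 pools and 8.75 and 8.70 in the day 7 pools. It was 8.30 and 8.04 in uninjured WldS nerves and 8.13 and 8.17 at day 14. Without day 3 replicate 1, the pool with the higher level, 13 of the 32 members were called lower, with a median of -0.99. Monocyte and neutrophil markers moved the same way: the mean of the neutrophil markers S100a8, S100a9 and Csf3r was 7.66 and 8.15 at day 3 and 6.12 and 6.11 at day 7, and that of the monocyte markers Ccr2 and Plac8 was 11.77 and 11.51 and then 10.37 and 10.79. Their part in the interferon result was not tested. In bulk tissue such as this, fewer cells of a type and less RNA per cell cannot be told apart.

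The promoters of these genes bear on the ISRE. Its core was searched as GAAA, any 2 bases and again GAAA, on both strands, in the 250 bases before each annotated start (RefSeq, build GRCm38.p6). It was found for 11 of the 24 list members that the promoter table holds (45.8%). The share was 3.46% of all 27025 genes in the table and 3.12% of the 11635 tested genes that it holds. The core was also found for 40 of 423 genes lower at day 7 (9.46%) and for 14 of 331 genes higher at day 7 (4.23%). The 40 include members of the interferon list, Oas3 and Ifit1 among them. A match of letters is a description and shows no binding. The promoters shown are those of the 2 members with the largest falls that the table holds and that carry the core, which is in capitals. For Oas3 (chr5:120777660-120777909, minus strand) the core begins 75 bases before the start, and for Ifit1 (chr19:34640639-34640888, plus strand) it occurs at 2 places, beginning 104 and 85 bases before the start, both on the reverse strand.
Oas3: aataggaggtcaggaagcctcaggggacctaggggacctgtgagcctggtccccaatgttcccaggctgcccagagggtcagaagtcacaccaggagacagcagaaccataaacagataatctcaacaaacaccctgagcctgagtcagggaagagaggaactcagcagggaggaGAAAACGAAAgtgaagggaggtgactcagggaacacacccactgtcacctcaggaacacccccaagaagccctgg
Ifit1: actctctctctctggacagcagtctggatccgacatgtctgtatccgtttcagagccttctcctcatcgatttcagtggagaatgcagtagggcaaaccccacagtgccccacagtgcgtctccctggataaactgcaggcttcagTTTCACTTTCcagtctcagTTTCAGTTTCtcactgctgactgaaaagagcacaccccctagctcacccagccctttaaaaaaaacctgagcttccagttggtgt

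Genes of the myeloid lineage were lower at day 7 as well. Of 15 monocyte genes tested, 11 were lower and 0 higher, with a median change of -1.28, and of 17 neutrophil and early myeloid genes 10 were lower and 0 higher, with a median of -0.98. Fcgr1, the high-affinity receptor for IgG on monocytes, had a signal of 10.53 and 10.20 at day 3 and 8.11 and 8.27 at day 7 (-2.18 ± 0.20, limma adjusted p = 3.06e-05). Clec4e, the receptor Mincle, which senses damaged cells, fell by 2.15 ± 0.20, from 7.60 and 7.45 to 5.43 and 5.33. Both genes were clear of overlap between the days, as was every called gene. Of 21 macrophage genes, 10 were lower and 0 higher, with a median of -0.70. Itgam, the integrin chain CD11b, went from 8.49 and 7.93 to 6.26 and 6.19 (-1.98 ± 0.19, limma adjusted p = 4.73e-05), and Aif1, the calcium-binding protein IBA1, from 9.85 and 9.54 to 7.53 and 8.47 (-1.69 ± 0.27). Fcer1g, the signalling chain of Fc receptors, fell by 1.45 ± 0.25, and Cd68, a lysosomal protein of phagocytes, by 1.34 ± 0.24. The day 7 pools of Aif1, Fcer1g and Cd68 differed among themselves, replicate 2 being the higher. Without day 3 replicate 1 the calls of Fcer1g (limma adjusted p = 0.0622) and Cd68 (0.0593) ended and 4 of the 21 macrophage genes were called. Without day 7 replicate 1, 6 of the 21 were called. The mean level of the macrophage list was 10.99 and 10.79 at day 3 and 9.98 and 10.31 at day 7, still above the 9.26 and 9.30 of uninjured WldS nerves. Csf1r and C1qa, both markers of resident and recruited macrophages, did not pass the test (-0.33, limma adjusted p = 0.161, and -0.57, adjusted p = 0.178).

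Genes by which macrophages handle lipid moved in both directions. Lipid-laden macrophage genes are those that phagocytes use after engulfing myelin. Of 20 tested, 3 were lower and 1 higher, with a median of -0.15 (-0.060 without day 7 replicate 1). Plin2, the coat protein of lipid droplets, was at 12.43 in both day 3 pools and at 11.42 and 11.68 at day 7 (-0.88 ± 0.10, limma adjusted p = 0.000207). Abcg1, a cholesterol exporter, fell by 0.83 ± 0.12 (limma adjusted p = 0.000696), from 11.25 and 10.99 to 10.27 and 10.31. Lipa, the lysosomal acid lipase, fell by 0.65 ± 0.13. Gpnmb, a membrane glycoprotein of phagocytes and pigment cells, rose by 0.72 ± 0.15, from 9.73 and 9.86 to 10.30 and 10.72. The call of Gpnmb ended without day 3 replicate 1 (limma adjusted p = 0.133) or day 7 replicate 2 (0.0737), and that of Lipa without day 3 replicate 2 (0.0734) or day 7 replicate 1 (0.0958). Without day 7 replicate 2, 5 members of the list were lower and 0 higher. A second probe set of Gpnmb gave -0.12. Of 29 lysosome genes, 3 were lower and 1 higher (13.8% called, against 6.62% of all genes, median -0.14). Gla, alpha-galactosidase A, fell by 1.07 ± 0.17 (limma adjusted p = 0.0014), and Ctsk, the collagen-degrading cathepsin K, rose by 0.89 ± 0.15 (limma adjusted p = 0.00186), from 10.82 and 10.81 to 11.82 and 11.59. Without day 7 replicate 2, 6 lysosome genes were lower, and without any other single pool of the 4, 2 were.

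Signals that recruit or instruct leukocytes declined in part. Of the chemokines 39.1% were called and of the cytokines and receptors 38.1%, against 6.62% of all genes. Of 23 chemokines tested, 9 were lower and 0 higher (median -0.65, and -0.43 without day 3 replicate 1). Ccl7, which attracts monocytes through the receptor CCR2, was at 8.95 and 8.72 at day 3 and at 6.88 and 7.47 at day 7 (-1.66 ± 0.22, limma adjusted p = 0.000476). Cxcl2, which attracts neutrophils, fell by 2.12 ± 0.47, but its day 3 pools were at 6.95 and 8.47, and without day 3 replicate 2 its limma adjusted p was 0.16, without day 7 replicate 1 it was 0.0695. Ppbp, a platelet chemokine, fell by 2.12 ± 0.43 from 8.35 and 8.29 to 6.15 and 6.25, and its limma adjusted p was 0.0806 without day 3 replicate 1 and 0.0571 without day 7 replicate 1. Without day 3 replicate 2 or day 7 replicate 1, 6 and 5 chemokines were called lower. Among 21 cytokines and their receptors 7 were lower and 1 higher (median -0.25, and -0.38 without day 7 replicate 2), and without day 3 replicate 1 only 3 were lower. Csf2rb, the shared receptor chain for GM-CSF and interleukin 3, fell by 1.26 ± 0.13 (limma adjusted p = 7.91e-05), and Il1b, the inflammatory cytokine interleukin 1 beta, by 1.08 ± 0.15 (limma adjusted p = 0.000574), from 6.98 and 6.80 to 5.84 and 5.76. In both, all day 7 pools were below all day 3 pools, as in every gene called lower.

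Of 14 complement genes, 5 were lower and 0 higher (median -0.48), and 1 was lower without day 3 replicate 1. The median was -0.21 without that pool, -0.74 without day 3 replicate 2 and -0.29 without day 7 replicate 1. C3ar1, the receptor for the anaphylatoxin C3a, went from 11.70 and 11.62 to 10.63 and 9.89 (-1.40 ± 0.20, limma adjusted p = 0.000828), and its other probe sets gave -1.71 and -1.32. Of 9 genes of MHC class II presentation, 2 were lower (22.2% called, against 6.62% of all genes). They were H2-DMa (-0.66 ± 0.18), which loads peptides, and Ciita (-0.64 ± 0.14), the master regulator of the class. Neither was called without day 3 replicate 1 (limma adjusted p = 0.384 and 0.238) or day 7 replicate 1 (0.373 and 0.0602), H2-DMa also not without day 3 replicate 2 (0.0591), and Ciita also not without day 7 replicate 2 (0.0563). Of 30 proteasome genes, 4 were lower and 1 higher (16.7% called, against 6.62% of all genes, median -0.17). The 4 lower ones were Psmb8 (-1.03 ± 0.21), Psmb9 (-0.95 ± 0.19), Psmb10 (-0.70 ± 0.19) and Psme1 (-0.72 ± 0.18), the catalytic subunits of the interferon-inducible immunoproteasome and a subunit of its activator. All 4 were uncalled without day 3 replicate 1, with limma adjusted p = 0.138, 0.154, 0.437 and 0.296, or without day 7 replicate 1, with limma adjusted p = 0.0909, 0.107, 0.283 and 0.269. Without day 7 replicate 2, 7 proteasome genes were lower and the median was -0.29, while without day 7 replicate 1 it was 0.0068.

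**Figure D2:**
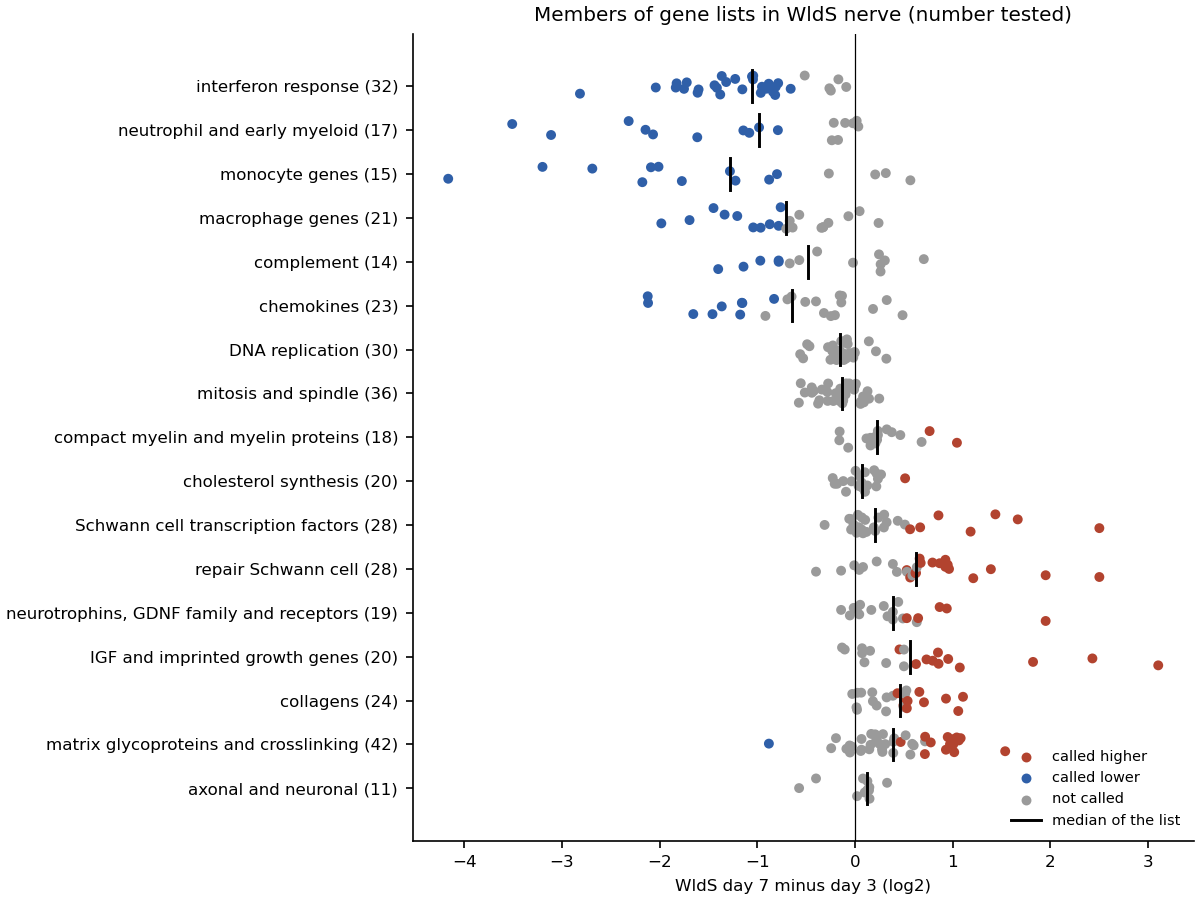
Change from day 3 to day 7 in WldS nerves (log2) for the tested members of 17 gene lists, with the number tested in parentheses. Red points were called higher, blue points called lower and grey points not called, and the black bar is the list's median. Called members of the interferon list all lie left of 0 (median -1.05), those of the repair Schwann cell list right of 0 (median 0.62), and the DNA replication and mitosis lists hold no called member.

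Of the 12 genes that rose most, 3 were in the list of IGF and imprinted growth genes (Dlk1, Igfbp3 and Mest), 2 in the repair Schwann cell list (Sox2 and Ngfr), 2 in the list of Schwann cell transcription factors (Sox2 and Sox4) and 6 in no list. Dlk1, an imprinted membrane protein related to Notch ligands, had a signal of 5.72 and 5.36 at day 3, near the dim filter, and 8.54 and 8.74 at day 7 (3.10 ± 0.20, an 8.59-fold rise, limma adjusted p = 1.21e-06). In uninjured WldS nerves it was at 5.32 and 5.65 and at day 14 at 6.04 and 5.58, so that the day 7 pools were the highest of the WldS series. Mest, another imprinted gene, went from 9.38 and 9.37 to 10.99 and 11.40 (1.82 ± 0.20, limma adjusted p = 0.000113), with 7.76 and 7.80 when uninjured and 9.49 and 8.83 at day 14. C1qtnf3, a secreted protein of the C1q and TNF family, rose by 2.64 ± 0.28, from 7.30 and 6.95 to 9.69 and 9.82, and was at 5.52 and 5.03 at day 14. All 3 genes peaked at day 7 among the WldS days. A different course was seen for Sox2, a transcription factor of immature Schwann cells, which went from 6.27 and 6.29 at day 3 to 8.70 and 8.86 at day 7 (2.50 ± 0.13, limma adjusted p = 9.79e-08) and stood at 10.07 and 10.13 at day 14. Megf10, an engulfment receptor, rose from 6.41 and 6.80 to 9.15 and 9.20 (2.57 ± 0.20, limma adjusted p = 5.72e-06) and was at 10.34 and 10.40 at day 14. Uninjured WldS nerves had 7.32 and 7.25 for Sox2 and 7.89 and 7.50 for Megf10, so the day 3 pools were below the uninjured ones and the day 7 pools above them for both genes. Igfbp3, which binds insulin-like growth factors, rose by 2.43 ± 0.22, and a second probe set gave 2.31. Ptn, the growth factor pleiotrophin, rose by 2.30 ± 0.24, from 8.14 and 8.40 to 10.79 and 10.34, but its other probe sets gave 1.62 and 0.03. Syt4, a synaptotagmin involved in vesicle release, rose by 2.10 ± 0.15, and a second probe set gave 2.51. The list of 12 also held Ppp1r14c (1.80 ± 0.23), an inhibitor of protein phosphatase 1, Aldh1a3 (1.73 ± 0.23, and 0.98 and 0.21 in its other probe sets), which makes retinoic acid, and Sox4 (1.67 ± 0.27), a transcription factor whose other 6 probe sets above the dim filter gave values from -0.12 to 0.61.

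Of 28 tested repair Schwann cell genes, 16 were higher at day 7 and 0 lower, with a median of 0.62. Ngfr, the neurotrophin receptor p75 that marks Schwann cells without myelin, was at 7.11 and 8.22 at day 3 and at 9.75 and 9.47 at day 7 (1.95 ± 0.27, limma adjusted p = 0.000567), while a second probe set gave 0.20. Btc, the ErbB ligand betacellulin, went from 6.37 and 6.75 to 8.07 and 7.83 (1.39 ± 0.20, limma adjusted p = 0.000809). Crabp2, a carrier of retinoic acid, went from 8.44 and 9.08 to 9.82 and 10.13 (1.21 ± 0.23, limma adjusted p = 0.00443). The 3 genes were higher in each day 7 pool than in each day 3 pool, as was every gene called higher. The mean level of the list was 7.72 and 7.88 at day 3, close to the 7.50 and 7.58 of uninjured WldS nerves, then 8.47 and 8.49 at day 7 and 8.74 and 8.68 at day 14. Without day 3 replicate 1 the number called was 6 and Crabp2 was among those lost (limma adjusted p = 0.0958). Markers of all Schwann cells stood beside this: Erbb3, the neuregulin receptor, rose by 0.96 (limma adjusted p = 0.00667), and Sox10, S100b and Foxd3 were not called (0.19, 0.44 and 0.76). Their mean was 9.38 and 9.47 in the day 3 pools against 9.92 and 10.11 in the day 7 pools, and its part in the result was not tested.

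Among 28 Schwann cell transcription factors, 7 were higher and 0 lower (median 0.20). Besides Sox2 and Sox4 these included Pou3f1, the factor Oct6 that precedes myelination, which went from 7.72 and 8.31 to 9.33 and 9.57 (1.44 ± 0.18, limma adjusted p = 0.00031), with a second probe set at 0.94. Egr3, a zinc finger factor of the family of the myelin regulator Egr2, went from 7.05 and 7.55 to 8.30 and 8.68 (1.18 ± 0.18, limma adjusted p = 0.000964), but its second probe set gave 0.13. Of 22 immediate early genes, which include Egr3, 1 was higher and 4 were lower (median -0.12), with Zfp36, an RNA-destabilizing protein, at -0.80 ± 0.17, and the AP-1 subunits Junb and Fos at -0.73 ± 0.18 and -0.44 ± 0.11. All 3 lost their calls without day 3 replicate 1 (limma adjusted p = 0.114, 0.177 and 0.265), Junb and Fos also without day 3 replicate 2 (0.108 and 0.0959) or day 7 replicate 1 (0.253 and 0.136), and Fos also without day 7 replicate 2 (0.0753). No lower immediate early gene was called without day 3 replicate 1, and 1 was without day 3 replicate 2 or without day 7 replicate 1.

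Trophic factors and receptors for axons rose in part, with 26.3% of the list called against 6.62% of all genes. Of 19 neurotrophins, GDNF family members and receptors, 5 were higher and 0 lower (median 0.39), and 2 were called without day 3 replicate 1 and 3 without day 7 replicate 1. Gdnf, which keeps motor neurons alive, was at 5.56 and 5.74 at day 3 and at 6.55 and 6.48 at day 7 (0.87 ± 0.17, limma adjusted p = 0.00509, and 0.0862 without day 3 replicate 1). Ntrk2, the receptor for BDNF, went from 10.37 and 10.20 to 10.98 and 10.88 (0.65 ± 0.11, limma adjusted p = 0.00321). Its 4 other probe sets above the dim filter gave 0.58, 0.06, 0.55 and -0.08, and averaged over its probe sets Ntrk2 was not called (0.23, limma adjusted p = 0.121). Gfra2, a receptor chain for the GDNF family, rose by 0.94 ± 0.19, but its 3 other probe sets above the dim filter gave -0.13, 0.52 and -0.10, and its call ended without day 3 replicate 1 (limma adjusted p = 0.102) or day 7 replicate 1 (0.111).

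Of 20 IGF and imprinted growth genes, 11 were higher and 0 lower, with a median of 0.56. Besides Dlk1, Mest and Igfbp3, the named member was Hmga2, an architectural chromatin protein of embryonic growth, at 7.34 and 7.55 at day 3 and 8.58 and 8.45 at day 7 (1.07 ± 0.12, limma adjusted p = 0.000113). Its other probe sets gave 1.43 and 1.71. All 4 genes had day 7 pools clear of the day 3 pools, as did every called gene. Fewer of the 20 were called without day 3 replicate 1, day 3 replicate 2 or day 7 replicate 1. The median ran from 0.54 to 0.64 when single pools were left out.

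Some of the extracellular matrix genes rose. Called were 41.7% of collagens, 35.7% of matrix glycoproteins and crosslinking genes and 15.0% of laminins and integrins, against 6.62% of all genes. Of 24 collagens, 10 were higher and 0 lower (median 0.46). Col15a1, a basement membrane collagen, went from 9.67 and 9.63 to 10.81 and 10.70 (1.10 ± 0.16, limma adjusted p = 0.00071), and Col14a1, which decorates fibrils, from 11.64 and 11.43 to 12.56 and 12.37 (0.93 ± 0.17, limma adjusted p = 0.00386). Col11a1, a fibril-forming collagen, rose by 1.06 ± 0.19 and lost its call without day 3 replicate 1 (limma adjusted p = 0.0581). The count of collagens was 2 without day 3 replicate 1, 4 without day 3 replicate 2, 3 without day 7 replicate 1 and 10 without day 7 replicate 2. Of 42 matrix glycoproteins and crosslinking genes, 14 were higher and 1 lower (median 0.39), and 9, 8 and 9 were higher without day 3 replicate 1, day 3 replicate 2 and day 7 replicate 1. Mfap4 and Mfap2, proteins of elastic microfibrils, went from 7.79 and 7.85 to 9.18 and 9.53 (1.54 ± 0.16, limma adjusted p = 6.77e-05) and from 9.72 and 9.70 to 10.66 and 10.89 (1.06 ± 0.16, limma adjusted p = 0.000903). A second probe set of Mfap2 gave 0.19. Of 20 laminins and integrins, 3 were higher and 0 lower (median 0.33, 1 without day 3 replicate 1 and 2 without day 7 replicate 1), led by Itgb8, an integrin chain that activates TGF-beta, which went from 10.65 and 10.88 to 11.79 and 12.02 (1.14 ± 0.13, limma adjusted p = 0.000113).

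Enzymes that cut the matrix and their inhibitors split in direction, with 3 of 26 higher and 4 lower (median 0.22, and 0.089 without day 7 replicate 1). No member was called higher without day 3 replicate 1 or without day 3 replicate 2, and 1 and 2 were without day 7 replicate 1 and replicate 2. Timp1, an inhibitor of metalloproteinases, went from 11.82 and 11.87 to 10.70 and 11.18 (-0.91 ± 0.15, limma adjusted p = 0.00178). Plaur, the urokinase receptor, fell by 0.81 ± 0.12 and the protease Mmp9 by 0.79 ± 0.14. Adam8, a membrane protease of leukocytes, fell by 0.80 ± 0.15, with a limma adjusted p of 0.1 without day 3 replicate 1 and 0.0563 without day 7 replicate 1. Secreted Wnt antagonists included 3 higher and 0 lower of 9 (median 0.07), and 2 were higher without each single pool of the 4. Sfrp2 was at 10.39 and 9.63 and then at 11.73 and 11.29 (a 2.83-fold rise, limma adjusted p = 0.00186), and Wif1 at 7.41 and 7.68 and then at 8.32 and 8.61 (0.92 ± 0.14, limma adjusted p = 0.00123). Both bind Wnt proteins outside the cell. Of 21 TGF-beta and BMP genes, 4 were higher and 1 lower (median 0.21), with Tgfb3 at 0.78 ± 0.14, Bmp5 at 1.00 ± 0.23 (0.27 and -0.0045 in its other probe sets), Tgfb2 at 0.66 ± 0.15 (0.29 in a second) and Inhba, a subunit of activin, at -0.53 ± 0.14. None of the list was called without day 3 replicate 1, and 3, 1 and 2 were higher without day 3 replicate 2, day 7 replicate 1 and day 7 replicate 2, each time with 0 lower.

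Genes of myelin proteins, myelin lipids and cholesterol synthesis were called at shares from 5.0% to 11.1%, against 6.62% of all genes. Of 18 genes of compact myelin and other myelin proteins, 2 were higher and 0 lower, with a median of 0.22. Pmp2, a fatty acid binding protein of myelin, went from 12.03 and 12.22 to 13.12 and 13.22 (1.04 ± 0.15, limma adjusted p = 0.000712), above its 12.47 and 12.86 in uninjured WldS nerves. Gjb1, the gap junction protein connexin 32, went from 8.36 and 8.94 to 9.50 and 9.33 (0.76 ± 0.19, limma adjusted p = 0.0283), and a second probe set gave 1.21. The Gjb1 call ended without day 3 replicate 1 (limma adjusted p = 0.387) or day 7 replicate 1 (0.18), each time leaving 1 gene of the list called. The mean level of the list was 10.34 and 10.39 at day 3 and 10.63 and 10.66 at day 7, against 10.87 and 11.17 in uninjured WldS nerves. Of 20 myelin lipid enzymes, 1 was higher, Far1 (0.53 ± 0.13), which makes fatty alcohols, and 0 were lower (median 0.11). Of 20 cholesterol synthesis genes, 1 was higher, Cyp51 (0.51 ± 0.12), lanosterol demethylase, and 0 were lower (median 0.07). Far1 was not called without day 3 replicate 1, day 3 replicate 2 or day 7 replicate 1 (limma adjusted p = 0.15, 0.108 and 0.217), and Cyp51 was not called without any single pool of the 4 (limma adjusted p from 0.0557 to 0.141). Of 19 ion channel genes, 7 were higher and 0 lower (median 0.22). Kcna1, the potassium channel next to nodes of Ranvier, went from 10.75 and 10.38 to 12.00 and 11.63 (1.25 ± 0.20, limma adjusted p = 0.00156), and its other probe sets gave 1.31 and 1.47. Kcnj10, an inward rectifier of glia, went from 5.43 and 5.89 to 7.03 and 7.36 (1.53 ± 0.20, limma adjusted p = 0.000333). The number of channels called was 2, 3 and 2 without day 3 replicate 1, day 3 replicate 2 and day 7 replicate 1.

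Cell division genes gave no call. Of 30 DNA replication genes and of 36 mitosis and spindle genes, limma called 0 in either direction, with medians of -0.15 and -0.13. These medians rested on single pools, being -0.026 and -0.0057 without day 7 replicate 1 and -0.28 in both lists without day 7 replicate 2. At an unadjusted p below 0.05, 5 and 8 were lower and 0 were higher, and both limma-trend and array weights called 0 in each list. Ccnb2, a cyclin of mitosis, was at 8.46 and 8.47 at day 3 and at 7.55 and 8.26 at day 7 (-0.56 ± 0.21, limma adjusted p = 0.158). Birc5, the chromosomal passenger survivin, was at 8.56 and 8.59 and then at 7.72 and 8.28 (-0.58 ± 0.21, limma adjusted p = 0.14). In both genes day 7 replicate 1 was well below the other 3 pools. Without day 7 replicate 2, 6 mitosis genes and 3 replication genes were called lower, among them Ccnb2 (limma adjusted p = 0.0164) and Birc5 (0.0372). The mean level of the mitosis list was 8.39 and 8.46 at day 3 and 8.12 and 8.40 at day 7, against 6.28 and 6.12 in uninjured WldS nerves, so the pools of both days stood high.

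Other cell types of the nerve were read against the 6.62% of all genes that were called. Of 23 genes of resting fibroblasts and perineurium, 4 (17.4%) were higher and 0 lower (median 0.25, and 2 higher without day 3 replicate 1), with Pi16 at 1.35 ± 0.20 (0.23 in a second probe set) and Dpt, a dermal matrix protein, at 0.84 ± 0.15, while the fibroblast markers Pdgfra, Dcn, Col1a1 and Lum were not called. Of 12 pericyte and smooth muscle genes, 5 (41.7%) were called, 3 higher and 2 lower (median -0.03). The 2 lower ones were the contractile genes Acta2, from 13.08 and 13.07 to 12.28 and 12.49 (-0.69 ± 0.12, limma adjusted p = 0.00297), and Tagln (-1.17 ± 0.24). The higher ones, Rgs5 (0.60), Kcnj8 (0.80 ± 0.17) and Abcc9 (0.69 ± 0.17), mark pericytes. Tagln lost its call without day 3 replicate 1, day 3 replicate 2 or day 7 replicate 1 (limma adjusted p = 0.07, 0.0591 and 0.0648), so that 1 gene stayed lower. Abcc9 lost it without the same 3 pools (0.142, 0.138 and 0.261) and Kcnj8 without the first (0.107), and the higher genes numbered 0, 2 and 1. Of 21 endothelial genes, 1 was lower, Vwf (-0.64 ± 0.17), the clotting factor von Willebrand factor, which was not called without any single pool of the 4 (limma adjusted p from 0.0665 to 0.21). Of 9 mast cell genes, 1 was higher, Kit (0.51 ± 0.14), a receptor also found on other cells, which was likewise not called without any of the 4 pools.

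Limma called no member of the lists for axons and neurons (11 tested, median 0.13), adipocytes (13, median -0.21), skeletal muscle (9, median -0.12), T and NK cells (14, median -0.15), B and plasma cells (10, median -0.11), red blood cells (3, median -0.06) or oxidative phosphorylation (29, median -0.09). At an unadjusted p below 0.05, 1, 0, 0, 4, 3, 1 and 1 of these members were lower and 0 were higher. Limma-trend called 1 B and plasma cell gene lower and otherwise called 0 in these lists, and array weights called 0. Nefl, the light neurofilament chain, was at 6.01 and 5.92 at day 3 and 5.36 and 5.42 at day 7 (-0.57 ± 0.20, limma adjusted p = 0.114). Gzmb, the cytotoxic granule protease, was at 7.74 in day 3 replicate 1 and between 5.80 and 6.13 in the other 3 pools. Ighm, the immunoglobulin mu chain, and Jchain, which joins IgM units, were at 9.67 and 7.23 in day 7 replicate 1, and between 11.15 and 11.89 and between 9.06 and 9.13 in the other 3. Without day 3 replicate 2, 3 T and NK cell genes were called lower, Gzmb included (limma adjusted p = 0.000201), and without day 7 replicate 2, 4 B and plasma cell genes were. Of 20 genes of glycolysis and lactate transport, 1 was higher and 2 lower (median -0.13). Eno2, an enolase of neurons and glia, rose by 0.84 ± 0.13 (limma adjusted p = 0.00122), and Slc16a3, a lactate exporter, fell by 0.83 ± 0.14 (limma adjusted p = 0.00184).

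The same interval was then compared between strains. In C57BL/6 nerves 2950 genes (20.3%) were called between day 7 and day 3, 1397 (9.60%) higher and 1553 (10.7%) lower, and 32.6% had an unadjusted p below 0.05. The 2950 became 1123, 1401 and 1230 without day 3 replicate 1, day 7 replicate 1 and day 7 replicate 2. The median absolute change over all genes was 0.20 against 0.14 in WldS. Of the genes higher in WldS, 270 were also higher in C57BL/6, which is 61.1% of the WldS list and 19.3% of the C57BL/6 list. Of those lower in WldS, 339 were also lower in C57BL/6, 65.1% of the one list and 21.8% of the other. There were 18 genes higher in WldS and lower in C57BL/6, and 10 the other way round. Across genes, which are not independent, the changes had r = 0.607 and rho = 0.570. The test of the difference itself, the WldS change minus the C57BL/6 change, called 331 genes (2.28%), 167 (1.15%) positive and 164 (1.13%) negative. The split was 309 and 187 without WldS day 7 replicate 1, and 73 and 67 without C57BL/6 day 7 replicate 2. Of these, 223 were not called in WldS. Among the positive ones 138 were lower at day 7 in C57BL/6, and among the negative ones 135 were higher there. Leaving out 1 array brought the 331 down to between 140 and 289, with the lowest counts without C57BL/6 day 7 replicate 2 (140) and replicate 1 (161), WldS day 3 replicate 1 (166), C57BL/6 day 3 replicate 1 (169) and WldS day 3 replicate 2 (175), except that 496 were called without WldS day 7 replicate 1.

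**Figure D3:**
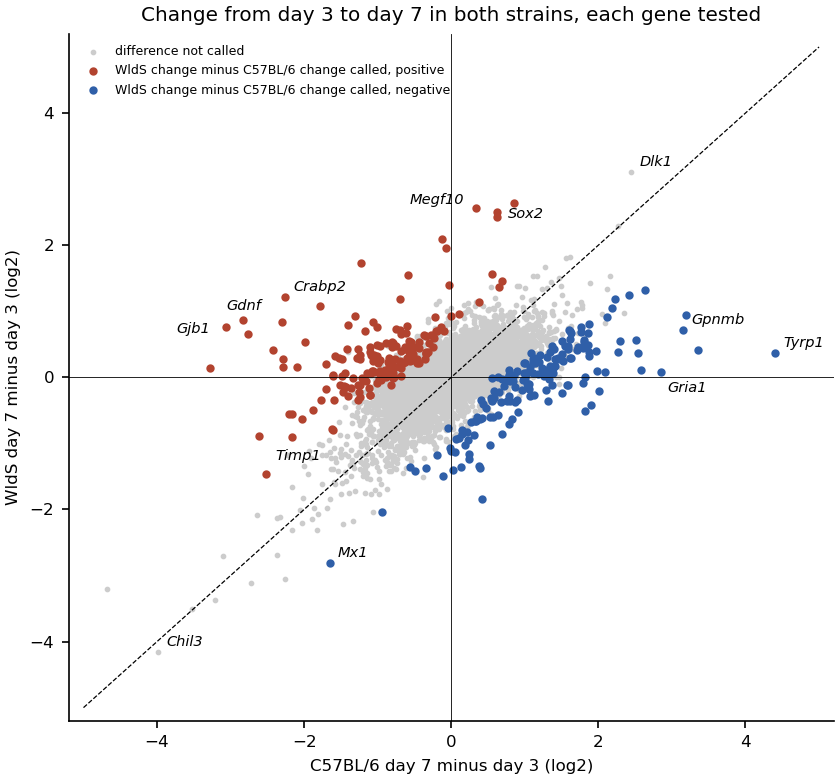
Change from day 3 to day 7 (log2) in C57BL/6 nerves (horizontal axis) and in WldS nerves (vertical axis), 1 point per tested gene, with equal change on the dashed line. Coloured points were called for the difference between the changes, 167 positive (red) and 164 negative (blue). Chil3 lies near the line with -4.16 in WldS and -3.98 in C57BL/6, while Gjb1 and Tyrp1 lie far from it.

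The largest positive differences belonged to genes that were high at day 3 in C57BL/6 nerves and fell there, while in WldS they were low at day 3. Gdnf was at 10.15 and 10.06 at day 3 and 7.18 and 7.37 at day 7 in C57BL/6, and the difference of the changes was 3.69 ± 0.23 (limma adjusted p = 1.11e-06). Clcf1, a cytokine of the ciliary neurotrophic factor family, was at 10.37 and 10.27 and then 7.59 and 7.52 in C57BL/6, against 6.68 and 6.84 and then 7.28 and 7.57 in WldS (3.42 ± 0.22, limma adjusted p = 1.31e-06). The day 7 pools of Clcf1 thus overlapped between strains. Its rise in WldS (0.66 ± 0.16, limma adjusted p = 0.021) was not called without day 3 replicate 1 (0.219), day 3 replicate 2 (0.054) or day 7 replicate 2 (0.111). Crabp2 was at 10.86 and 10.94 and then 8.48 and 8.80 in C57BL/6 (3.47 ± 0.32, limma adjusted p = 3.27e-05). Fam102a was at 12.41 and 12.33 and then 10.06 in both pools, against a rise from 9.01 and 9.11 to 9.88 and 9.91 in WldS (3.14 ± 0.16, limma adjusted p = 2.92e-07). Gjb1 had the largest value, 3.82 ± 0.27 (limma adjusted p = 3.15e-06), with 10.58 and 10.82 at day 3 and 7.54 and 7.74 at day 7 in C57BL/6. Cgref1, a secreted calcium-binding protein, fell by 3.28 in C57BL/6 and had no call in WldS (0.14 ± 0.24), and the sign of the latter turned without day 7 replicate 2 (-0.28).

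The largest negative differences belonged to genes that rose in C57BL/6 between these days. In WldS, Sorcs1, Prss12 and Clca3a2 were not called, Gpnmb rose less, and Tyrp1 and Gria1 were too dim to measure. Tyrp1, an enzyme of melanin synthesis, was at 4.56 and 4.63 at day 3 and at 5.03 and 4.90 at day 7 in WldS, below the dim filter throughout, and went from 4.83 and 4.44 to 9.05 and 9.01 in C57BL/6 (-4.03 ± 0.23, limma adjusted p = 5.09e-07). By day 14 it was at 7.16 and 7.31 in WldS. Gria1, a glutamate receptor subunit, was also below the dim filter in WldS at both days and rose by 2.85 in C57BL/6 (-2.76 ± 0.25, limma adjusted p = 2.91e-05). The other 2 probe sets of Tyrp1 gave differences of -1.97 and -2.19. With no WldS pool of either day above the filter, the WldS change of both genes is not measured, and these differences are no bound. Sorcs1, a sorting receptor, had 8.09 and 8.24 and then 8.37 and 8.77 in WldS, against 5.56 and 5.89 and then 8.93 and 9.22 in C57BL/6 (-2.94 ± 0.24, limma adjusted p = 1.23e-05), but its other probe sets gave differences of -0.92 and -0.27. Prss12, the protease neurotrypsin, stayed between 10.38 and 10.53 in the 4 WldS pools and went from 8.35 and 8.20 to 10.80 and 10.90 in C57BL/6 (-2.47 ± 0.18, limma adjusted p = 3.15e-06). Gpnmb rose in both strains, by 0.72 in WldS and from 9.58 and 9.93 to 12.92 and 12.90 in C57BL/6 (-2.44 ± 0.22, limma adjusted p = 2.91e-05). Clca3a2, of a chloride channel accessory family, had a difference of -2.34 ± 0.33 (limma adjusted p = 0.00149), with 1 of its WldS day means under the dim filter.

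**Figure D4:**
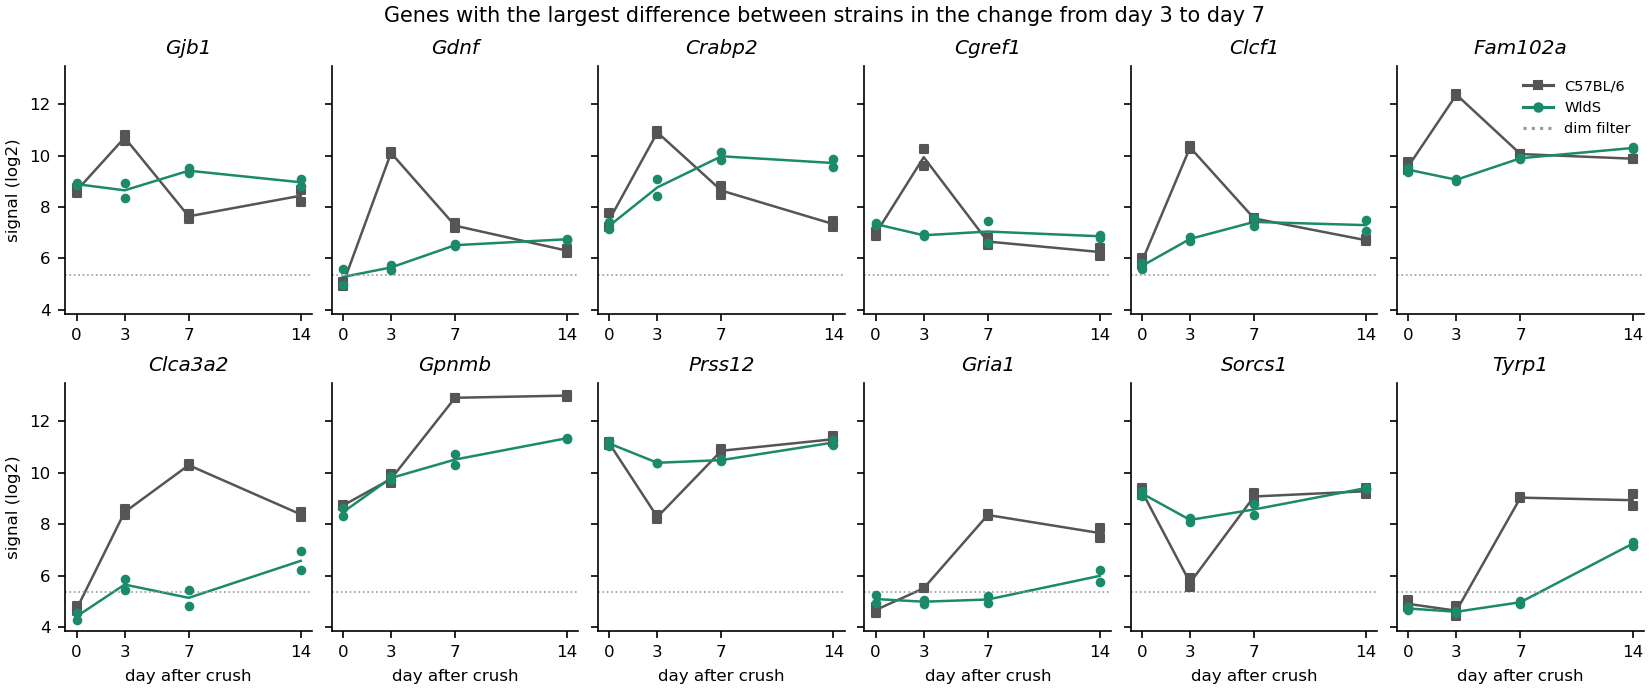
Signal (log2) in each array at day 0, 3, 7 and 14 for the 6 genes with the largest positive (top) and the 6 with the largest negative (bottom) difference between strains in the change from day 3 to day 7. Grey squares are C57BL/6 pools, green circles WldS pools, lines join group means and the dotted line is the dim filter at 5.37. The top row shows C57BL/6 high at day 3 and lower at day 7, as Gdnf from 10.15 and 10.06 to 7.18 and 7.37, and Tyrp1 in WldS stays under the filter until day 14, when it reads 7.16 and 7.31.

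By the share of members with a called difference, repair Schwann cell genes stood first among the lists described here. Over all genes that share was 2.28%. Of 28, 12 had a positive difference and 0 a negative one (14 and 2 at an unadjusted p below 0.05, and 13 and 1 with array weights), and the count without 1 array ran from 8, without C57BL/6 day 7 replicate 1, to 12. In C57BL/6 nerves 8 of them were higher and 8 lower at day 7, with a median of 0.21 against 0.62 in WldS. The 8 higher became 4 without C57BL/6 day 3 replicate 1 or without either day 7 replicate. Of the genes named next, Megf10, Syt4, Hmga2 and Aldh1a3 are not members of that list. Sox2 (1.88 ± 0.18, limma adjusted p = 4.01e-05) rose in both strains but started in C57BL/6 from 9.91 and 10.28 at day 3. Megf10 was at 10.24 and 10.40 and then 10.55 and 10.78 in C57BL/6 (2.23 ± 0.28, limma adjusted p = 0.000516), and Syt4 at 11.22 and 11.46 and then 11.26 and 11.17 (2.22 ± 0.21, limma adjusted p = 4.01e-05). In these 3 genes each WldS pool of either day was below each C57BL/6 pool of either day. Ngfr was at 11.20 and 11.46 and then 10.99 and 11.53 in C57BL/6, and its difference of 2.02 ± 0.38 (limma adjusted p = 0.0111) was not called without C57BL/6 day 7 replicate 1 (0.0698), and a second Ngfr probe set gave a difference of 0.38. Hmga2 fell in C57BL/6 from 11.43 and 11.61 to 9.73 in both pools while it rose in WldS (2.86 ± 0.17, limma adjusted p = 5.86e-07), and Aldh1a3 fell from 10.94 and 11.02 to 9.75 and 9.76 (2.96 ± 0.33, limma adjusted p = 0.000199).

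The immune lists were compared in the same way, against the 2.28% of all genes with a called difference. In the interferon list the difference was negative for 3 of 32 and positive for 0 (7 and 0 at an unadjusted p below 0.05), and 19 were lower in C57BL/6, with a median of -0.78, which became 11 to 15 without 1 C57BL/6 array, the lowest without day 7 replicate 2. The 3 were Mx1 (-1.16 ± 0.21, limma adjusted p = 0.00912), Ifit2 and Cxcl10, the last 2 named after their values were seen. None of the 3 was called without WldS day 3 replicate 1, C57BL/6 day 3 replicate 1 or C57BL/6 day 7 replicate 1, and 1 was without C57BL/6 day 7 replicate 2. The mean level of this list at day 3 was 10.05 and 9.69 in WldS, above the C57BL/6 pools in the plot of list levels. Limma called a difference for 0 of the 15 monocyte genes (3 positive and 2 negative at an unadjusted p below 0.05, 0 with limma-trend or array weights, and 1 without C57BL/6 day 7 replicate 1), 13 of which were lower in C57BL/6 against 11 in WldS. Lipid-laden macrophage genes included 4 of 20 with a negative difference and 0 with a positive one (8 and 1 at an unadjusted p below 0.05). The absence of a positive call depended on WldS day 7 replicate 1. Among the 4 were Plin2 (-1.19 ± 0.15, limma adjusted p = 0.000513), Abcg1 (-1.04 ± 0.17, limma adjusted p = 0.00378) and Gpnmb. The 4th, Trem2, a lipid receptor named after its values were seen, lost the call without each of 7 of the 8 arrays, the exception being WldS day 7 replicate 2. In C57BL/6, 8 of the 20 were higher, and 4 without day 3 replicate 1 or day 7 replicate 2.

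In the compact myelin and myelin protein list 10 were higher and 4 lower in C57BL/6, against 2 and 0 in WldS, and the difference was positive for 2 and negative for 5 of 18. The negative ones numbered 1 without WldS day 3 replicate 1, WldS day 3 replicate 2 or C57BL/6 day 7 replicate 2, 2 without WldS day 7 replicate 2, C57BL/6 day 3 replicate 1 or C57BL/6 day 7 replicate 1, and 3 without C57BL/6 day 3 replicate 2. Ion channels had 12 higher and 2 lower in C57BL/6, and 7 of 19 had a negative difference with 0 positive. Fewer were negative without WldS day 3 replicate 2 or C57BL/6 day 7 replicate 2. At an unadjusted p below 0.05, 11 channels were negative and 3 positive, and array weights called 8 negative and 1 positive. Of 30 DNA replication and 36 mitosis genes, 16 and 18 were lower in C57BL/6, which became 5 and 10 without day 3 replicate 1 or day 7 replicate 2 6 and 9 without day 7 replicate 1, and 10 and 12 without day 3 replicate 2. Limma called a difference for 0 of either list (2 and 6 positive at an unadjusted p below 0.05, and 1 mitosis gene with limma-trend or array weights), and for 1 and 4 without WldS day 7 replicate 1. A difference between the strains in these genes was therefore not shown.

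**Figure D5:**
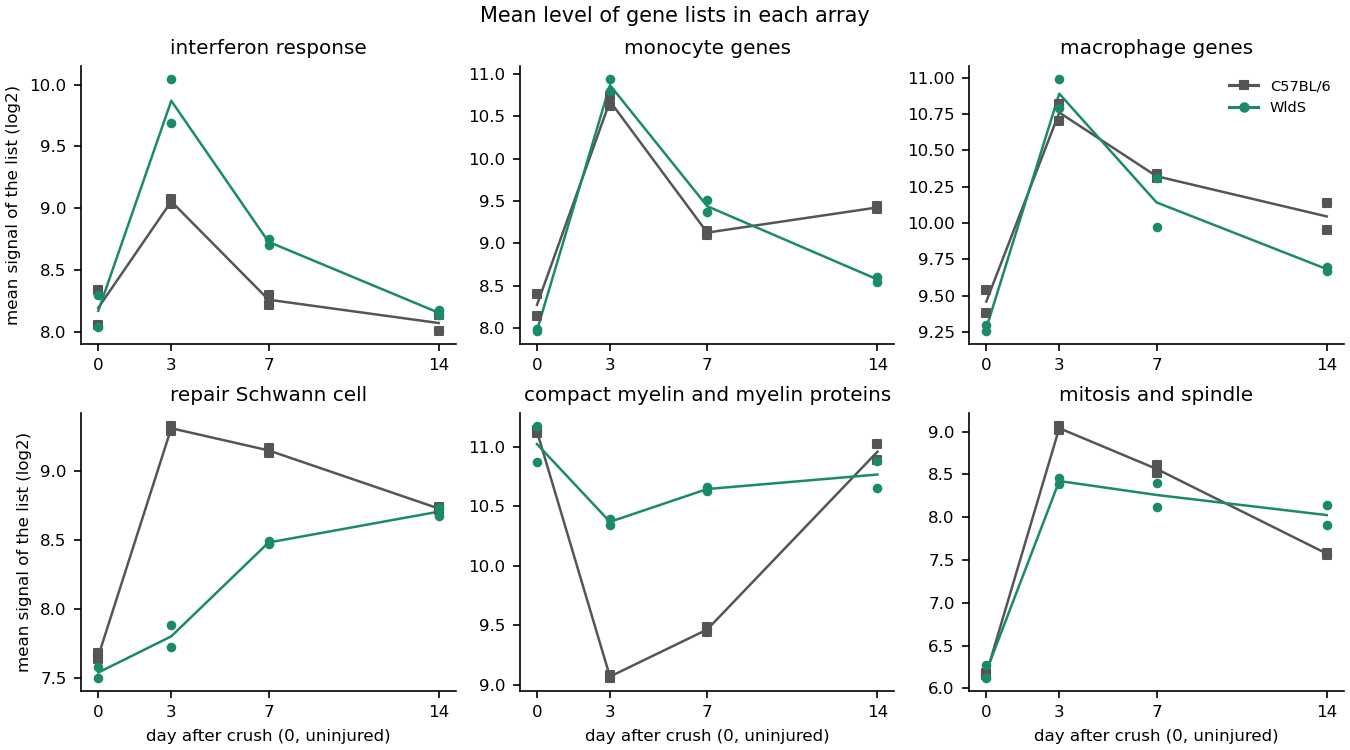
Mean signal (log2) over the tested members of 6 gene lists in each array at day 0 (uninjured), 3, 7 and 14. Grey squares are C57BL/6 pools, green circles are WldS pools and lines join group means. Between day 3 and day 7 the WldS pools fall in the interferon list, from 10.05 and 9.69 to 8.75 and 8.70, and move up in the repair Schwann cell list, from 7.72 and 7.88 to 8.47 and 8.49.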

How the data were processed

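The deposited table holds log2 signals for 45101 probe sets in 16 arrays, 2 for each of 8 groups. The submitters' processing notes name GCOS 1.4, RMA, limma and Partek, with no role given. The scale was read from the values, and the authors' background correction is not given in the sources used here. Probe sets with 1 gene symbol in the platform annotation numbered 34945, against 932 with several and 9160 with none listed. Each gene was represented by 1 probe set, the one with the highest mean over all arrays. Of 18193 genes, 14545 had a mean over all arrays above a filter at the 30th percentile of probe set means (log2 5.37). Limma 3.58.1 in R 4.3.3 was fitted to all 16 arrays with 1 mean per group (8 residual and 5.82 prior degrees of freedom), and p-values were adjusted by Benjamini-Hochberg over all genes tested. A gene is called at an adjusted p below 0.05.

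The 138 named genes were chosen by rule, with clone names left out of the largest changes and differences. They were the 12 largest rises and 12 largest falls among called genes whose day 7 pools did not overlap the day 3 pools. Added were up to 4 called members of each of 40 gene lists (the 2 largest changes where none was called). The 6 largest differences of each sign between strains and Nmnat1 completed them. The text gives values for most but not all of the 138. Some of those left out, such as Dkk2, Cacna2d1 and C1qc, lost their call under several settings. The comparison and the lists were chosen with earlier results of these data known. Promoters came from RefSeq and were matched by symbol. A promoter of the mitosis list was planned and is not shown, since no member was called.

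On simulated data with 14545 genes, 50 of them at each size, log2 changes of 0.5, 1, 1.5 and 2 were called in 44%, 88%, 98% and 100% of genes for WldS day 7 versus day 3, and in 10%, 66%, 86% and 92% for the difference between strains. Unchanged genes were called in 0.0906% and 0.0418%. The simulation drew independent normal noise with 1 spread per gene shared by all groups, as the fitted model assumes. In the data the median standard deviation between pools ran from 0.061 (C57BL/6 day 7) to 0.145 (WldS day 0). These rates therefore describe the method under its own assumptions and need not hold for these arrays. Alternatives covered the filter, the choice of probe set, normalization, the arrays in the fit, limma-trend, array weights, the replicate block, RNA quality, a 2-fold threshold and leaving out each array.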

Additional observations from a re-analysis of the deposited data

Results flagged for a closer look

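Of the 138 genes chosen for naming, 35 are listed here because their change from day 3 to day 7 differed between the strains by limma's test of the difference itself. The values are log2, the WldS change minus the C57BL/6 change, with 20 positive and 15 negative. The 12 genes with the largest differences were chosen for that difference, so their presence here is fixed by the choice.

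The call of 22 genes held without each of the 8 arrays in turn. The positive ones among them were Gjb1 (3.82), Gdnf (3.69), Crabp2 (3.47), Cgref1 (3.42), Clcf1 (3.42), Fam102a (3.14), Aldh1a3 (2.96), Hmga2 (2.86), Megf10 (2.23), Syt4 (2.22), Sox2 (1.88), Igfbp3 (1.81) and Timp1 (1.26). The negative ones were Tyrp1 (-4.03), Sorcs1 (-2.94), Gria1 (-2.76), Prss12 (-2.47), Gpnmb (-2.44), Clca3a2 (-2.34), Trpm3 (-2.24), Plin2 (-1.19) and Abcg1 (-1.04). Tyrp1 and Gria1 were below the dim filter in WldS at both days. Their WldS change is not measured, and their values rest on the change in C57BL/6.

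For 13 genes the call ended without 1 or more of those arrays. The positive ones were Ngfr (2.02), C1qtnf3 (1.78), Btc (1.42), Ntrk2 (0.92), Mmp9 (0.83), Cyp51 (0.82) and Itgb8 (0.76), and the negative ones were Cd68 (-1.71), C3ar1 (-1.43), Kcna1 (-1.17), Mx1 (-1.16), Gla (-1.06) and Egr3 (-1.05). Groups of 2 arrays are too small to test whether 1 array stands apart from its own group.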

How the results depend on the processing

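With 2 pools per group, precision rests on few arrays, and single pools decided many calls. Of 963 WldS calls (442 higher, 521 lower), 459 (171, 288) were left with only the arrays of the strain and 454 (191, 263) with only those of the groups compared, fits that have fewer arrays. The 3'/5' index as a covariate gave 1677 calls, 935 of them higher, and 686 were higher without both arrays of high index (WldS day 0 replicate 1 and day 14 replicate 2). The cause of these increases was not tested. A 2-fold threshold left 258 (75 higher, 183 lower), 529 of 2950 in C57BL/6 and 219 of 331 for the difference between strains, which became 512 with array weights and 583 with the covariate. Leaving out 1 array, which leaves a lone pool that is assumed to vary like the other groups, gave 319 to 1259 WldS calls, 120 to 577 higher, 199 to 682 lower, 1123 to 2669 in C57BL/6 and 140 to 496 for the difference. By direction, the 167 positive and 164 negative differences became 262 and 250 with array weights, 303 and 280 with the covariate and 73 to 309 and 67 to 187 without 1 array, and 253 were positive without both arrays of high index. A 2-fold threshold left 107 positive ones. In C57BL/6, 1397 higher and 1553 lower became 567 to 1276 and 556 to 1393 without 1 array, and 266 and 263 with the 2-fold threshold. All other settings left these counts within 1.5 times of the reported ones.

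Of 138 named genes, 113 were called in WldS, 59 of them under every setting that tested them (at most 17), and 0 of the 113 changed direction. The call was lost by 47 and 22 without day 3 replicates 1 and 2, 34 and 12 without day 7 replicates 1 and 2, 36 with only the strain's arrays and 40 with only the groups compared. Among uncalled genes the sign turned for Hbb-b2 (-0.20 with the mean of all probe sets) and, without day 7 replicate 2, for Cgref1 (-0.28) and Gria1 (-0.069), which ran up to 0.57 and 0.24 without the other pools.

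Replicate numbers are not stated to mark a shared batch, and same-numbered WldS day 3 and day 7 pools did not deviate together (r = -0.17), so pairing was not assumed. Over all pairs of groups r ran from -0.58 (WldS day 0 with day 14) to 0.19 (C57BL/6 day 3 with day 7). It was -0.41 for C57BL/6 day 3 with WldS day 7, so deviations in different groups were not all unrelated. With the replicate block 874 WldS genes were called (391 higher, 483 lower), 2695 in C57BL/6 and 286 for the difference, and 7 named calls were lost.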
